A study of Mus musculus with 28 samples.

Results

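Input chromatin, sonicated and sequenced without an antibody, was compared between adult male germ cells and spermatogonia of the mouse testis. The members were the 16 input libraries among 28 in the series: 8 from adult mice and 8 from mice at postnatal day 7. The adult cells were pachytene spermatocytes (PS), in meiotic prophase, and round spermatids (RS), the haploid cells that follow meiosis. The younger cells were Thy1+ spermatogonia, which include the stem cells, and c-Kit+ spermatogonia, which have begun to differentiate. All mice were C57BL/6, either wild type (WT) or knockout for Scml2 (KO), an X-linked gene for a Polycomb-like protein of germ cells. Each of the 8 groups (Thy1+ WT, Thy1+ KO, c-Kit+ WT, c-Kit+ KO, PS WT, PS KO, RS WT and RS KO) had 2 replicates. Overlapping peaks of the 16 libraries were merged into 4061 regions, leaving out the mitochondrial chromosome, and regions were then sorted by the number of inputs that called them. The other 12 libraries, of the active histone mark H3K27ac, covered all groups but PS WT and RS WT, whose H3K27ac was not analysed here. Spermatogonia came from the younger and PS and RS from the older mice, so stage and age cannot be told apart. Sedimentation (STA-PUT) and MACS were the isolation methods, and which cells had which is not given in the sources used here. Nothing in the labels says that replicates came from separate animals, so p-values measure the spread between these libraries. Input peaks report DNA recovery and not gene activity, so they did not test the cell types or the genotype. No input called a region listed under Scml2, and 0 of 10 genes with ubiquitous promoters had one, where 9.14% of all protein-coding genes were named at some input region.

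A peak in an input is a place where more reads pile up than the library's average, although nothing was immunoprecipitated. In mouse chromatin such places are known near the ends of assembled chromosomes, at satellite and ribosomal DNA, at insertions of mitochondrial sequence, and at gene families present in more copies in the animal than in the reference. Open chromatin can also release more DNA on sonication, and for that reason input libraries serve as controls for ChIP-seq. Copy number and openness were not measured here, and their part in the values below was not tested.

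Few recurring input regions, those called in at least 12 of the 16 inputs, reached an annotated gene start, though a larger share than of all regions. Within 1 kb of a start listed in the authors' tables lay 13 of the 276 (4.71%), against 1.82% of all 4061 regions. In the RefSeq promoter windows of GRCm38.p6, which run from 250 bases before a start to 50 after it, 7 of the recurring regions touched 10 windows of 8 genes. Of these, 3 windows are printed, 5′ to 3′ on the gene's strand, because they show the range of base composition under a recurring input region. Capitals mark the bases inside the recurring region, which holds all of the first and second windows. The first lies within the Sfi1 block described below (chr11:3136826-3137125, + strand), and the second lies at 4931408C20Rik (chr1:26687411-26687710, − strand). The last belongs to Tmem267 (chr13:119488223-119488522, + strand), whose window overlaps that of 3110070M22Rik on the other strand.
Gm33862: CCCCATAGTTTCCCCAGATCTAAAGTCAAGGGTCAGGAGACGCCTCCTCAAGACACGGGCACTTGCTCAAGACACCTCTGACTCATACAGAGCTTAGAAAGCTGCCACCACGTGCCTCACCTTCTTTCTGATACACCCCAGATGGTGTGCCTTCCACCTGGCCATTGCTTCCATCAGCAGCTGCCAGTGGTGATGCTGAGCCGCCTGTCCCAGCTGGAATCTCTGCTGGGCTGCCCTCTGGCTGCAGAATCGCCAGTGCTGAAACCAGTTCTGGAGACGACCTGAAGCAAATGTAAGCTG
4931408C20Rik: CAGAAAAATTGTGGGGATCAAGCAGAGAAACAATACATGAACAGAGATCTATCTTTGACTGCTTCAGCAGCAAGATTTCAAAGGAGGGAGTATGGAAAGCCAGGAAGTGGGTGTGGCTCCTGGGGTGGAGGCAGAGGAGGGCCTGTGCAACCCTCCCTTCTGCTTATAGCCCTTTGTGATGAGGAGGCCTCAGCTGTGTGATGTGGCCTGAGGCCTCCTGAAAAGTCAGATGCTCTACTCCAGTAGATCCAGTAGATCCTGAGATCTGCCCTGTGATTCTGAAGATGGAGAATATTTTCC
Tmem267: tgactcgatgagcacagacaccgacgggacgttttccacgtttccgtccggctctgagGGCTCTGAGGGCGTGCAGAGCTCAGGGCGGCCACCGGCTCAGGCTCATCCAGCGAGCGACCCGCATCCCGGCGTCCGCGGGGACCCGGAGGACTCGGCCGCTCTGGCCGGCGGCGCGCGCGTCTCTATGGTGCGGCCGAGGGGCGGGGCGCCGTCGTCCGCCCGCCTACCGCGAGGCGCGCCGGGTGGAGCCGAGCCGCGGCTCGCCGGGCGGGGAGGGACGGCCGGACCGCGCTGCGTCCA
The dinucleotide CG, which reads the same on both strands, occurred 6 times in the Gm33862 window, 0 times in that of 4931408C20Rik and 50 times in that of Tmem267. As many as 50 were found in 0.855% of the 32851 RefSeq windows, whose median was 7, while 5.43% had no CG. The 3 windows thus ran from none to among the most CG-rich, and all were called in 15 or 16 inputs. One mature microRNA also lay inside a recurring region, miR-6236 (chr9:110281353-110281371, + strand), shown with its seed in capitals (bases 2 to 8).
mmu-miR-6236: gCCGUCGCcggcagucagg
Its region, on chromosome 9 from 110281196 to 110281427 with Elp6 as the listed gene, was called in 16 of 16 inputs. Fold enrichment there, the summit height plus 1 over the library's background height plus 1, ranged from 10.1 to 14.1 (median 11.6) in adult inputs and from 6.69 to 15.4 (median 10.9) in spermatogonial inputs.

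Most regions were called in 1 or a few inputs, and a smaller group in nearly all of them. Of the 4061 regions, 276 (6.8%) were called in at least 12 of the 16 inputs and 171 in all 16, whereas 2299 were called in 1 input alone. A further 636 were called in 2 inputs, 303 in 3 and 547 in 4 to 11. Each library called between 223 and 271 of the 276, a count that the choice by recurrence keeps high. Peaks inside them numbered 348 to 373 (median 354) in adult inputs and 291 to 360 (median 335.5) in spermatogonial inputs. Peaks outside them numbered 419 to 827 (median 609.5) and 68 to 832 (median 343). Recurring regions therefore held between 29.6% and 81.1% of a library's peaks. The distribution of regions by number of libraries had its lows at 10 and 12 inputs, with 24 and 21 regions, and rose again to 171 at 16. Just under the limit, the 31 regions called in 11 inputs had a median fold enrichment of 6.02, and the 21 called in 12 had one of 6.12.

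**Figure D1:**
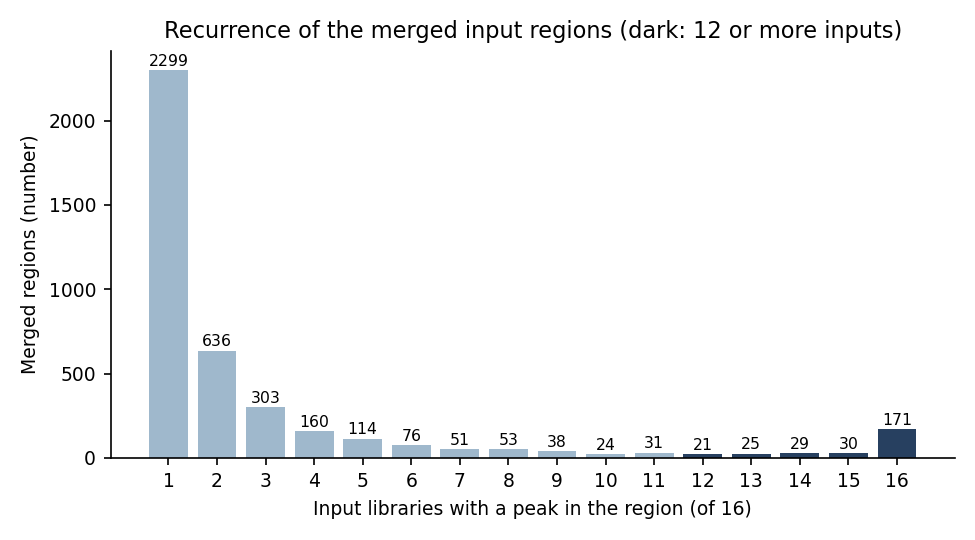
Number of merged regions (y axis) against the number of input libraries with a peak in the region (x axis), with regions called in 12 or more inputs in dark. A total of 2299 regions were called in 1 library and 171 in all 16, with 636 in 2 libraries, 303 in 3 and 547 in 4 to 11.

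**Figure D2:**
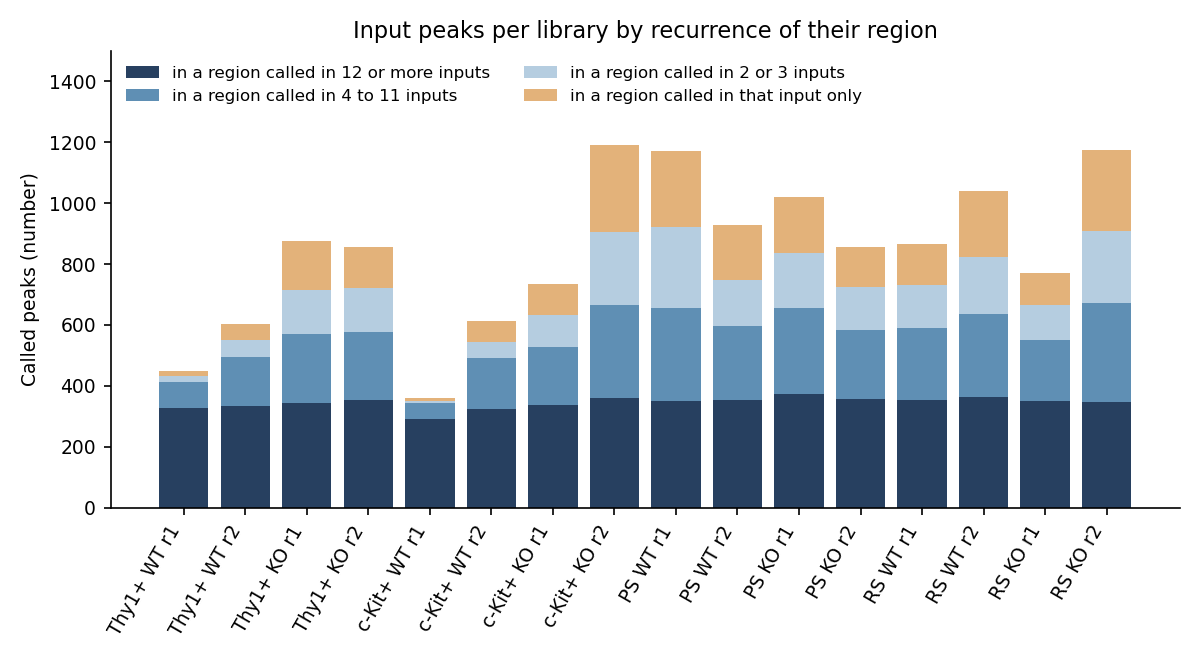
Called peaks per input library (y axis, number), stacked by how many inputs called the region. The lowest segment, regions called in 12 or more inputs, holds 291 to 373 peaks in every library, while the segments above it are shortest in the 4 WT spermatogonial inputs.

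A few loci held much of the recurring length, while most loci held 1 region. Chained within 100 kb, they formed 126 loci, of which 103 held a single region. The 5 loci with the most regions held 97 regions (35.1%) and 53.3% of the recurring length. Chromosome 1 carried 71 recurring regions (25.7%, against 10.7% of all regions), chromosome 9 carried 28 (10.1% against 5.47%) and chromosome 11 carried 24 (8.696% against 5.52%). On the sex chromosomes there were 5 on X and 6 on Y. The first 4 Mb of a chromosome held 70 (25.4%), on 11 chromosomes, against 153 of all 4061 regions (3.77%).

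Exons and promoters took a larger part of the recurring regions than of all regions. By the class the authors' tables give each peak, 34 were exonic (12.3%, against 2.27% of all regions), 87 intronic, 113 intergenic, 32 upstream and 10 at promoters. The promoter share was 3.62%, against 1.65% of all regions. Mroh2a, which encodes a HEAT-repeat protein, and Sfi1, whose product binds centrin, held most of the named exonic regions. These shares describe the regions and were not tested.

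The tallest region lay on chromosome 2 from 98662166 to 98663044, where the listed gene, B230118H07Rik, is a neighbour that the region does not overlap. Fold enrichment was 109 to 117 in the adult inputs (median 112) and 103 to 116 in the spermatogonial inputs (median 109). A second region of that locus, from 98666175 to 98667399, gave 96.8 to 102 (median 99.1) and 93.1 to 101 (median 97.98). Both stages overlapped at both regions, and all 4 regions of the locus were called as 4 peaks in each of the 16 inputs.

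An intergenic region by Cdon, a gene for a Hedgehog co-receptor, lay on chromosome 9 from 35305144 to 35305616 and reached nearly the same height. It gave 99.4 to 110 (median 105) in adult inputs and 98.8 to 112 (median 107) in spermatogonial inputs. In an intron of Chl1, a cell adhesion gene (chromosome 6, 103648993 to 103649359), the values were 71.9 to 79.3 (median 75.6) and 70.5 to 78.3 (median 74.4). Neither region separated the stages. Below these, and beside the Mir101c and Rn45s regions described further on (medians 59.8, 56.5 and 56.2), came Gm5458 on chromosome 14 (median over the inputs 62.8), Ly6c2 on chromosome 15 (53.7), Aida on chromosome 1 (46.0), 2700054A10Rik on chromosome 17 (42.5), Cmss1 and Filip1l on chromosome 16 (37.1), Tmem125 on chromosome 4 (36.7), Pak3 on chromosome X (32.8) and 1700012B15Rik on chromosome 12 (32.8). Among the 15 regions with the highest medians, the coefficient of variation over 16 libraries ran from 2.29% to 11.3%. Over all 171 regions called everywhere it ran to 29.8%, with a median of 13.8%. The highest peak of a library had a height of 196 to 215. Whether an upper limit on height narrows the spread at the tallest regions was not tested.

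**Figure D3:**
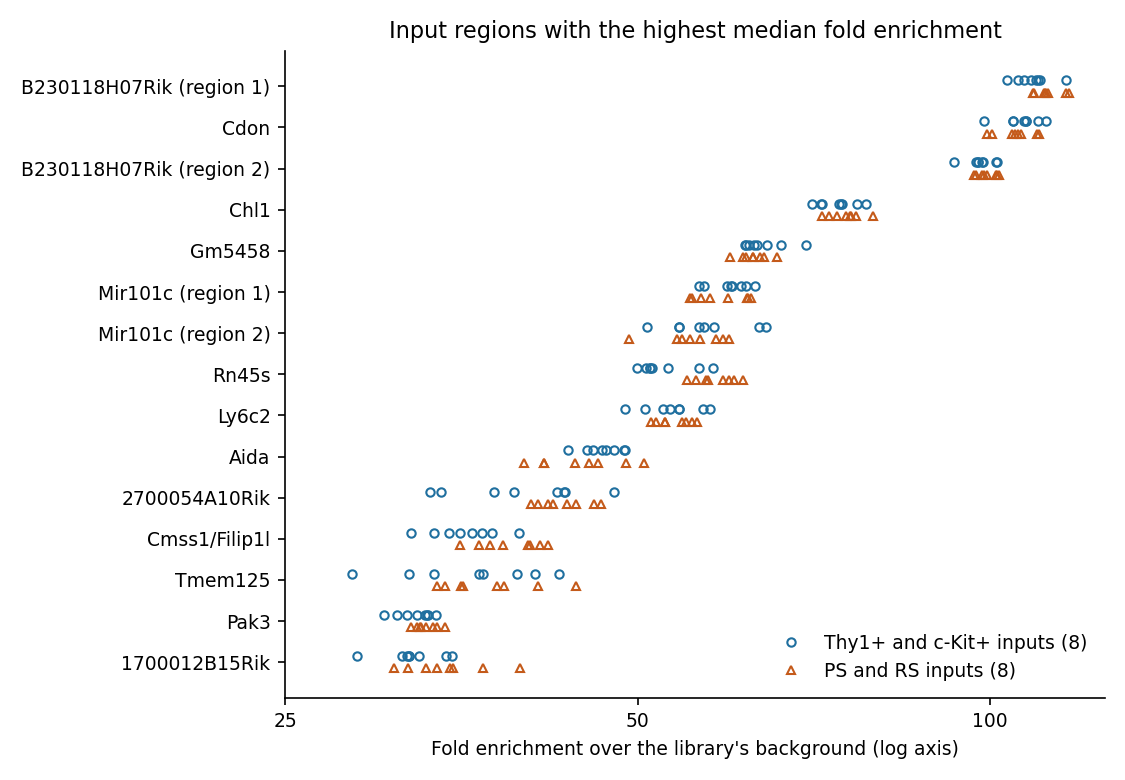
Fold enrichment over the library's background (log axis) in each of the 16 inputs at the 15 regions with the highest medians, at most 2 per locus, with circles for the 8 Thy1+ and c-Kit+ inputs and triangles for the 8 PS and RS inputs. The marks of both stages overlap in every line, from about 110 at the first B230118H07Rik region (median 110) to a median of 32.8 at the last.

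Ribosomal and satellite neighbours were the first group of listed genes. Rn45s, the gene for the 45S precursor of ribosomal RNA, was covered by 1 region called in 16 of 16 inputs (chromosome 17, 39842942 to 39848884, promoter class). Fold enrichment there was 55.1 to 61.5 (median 58.3) in adult inputs and 49.9 to 58.0 (median 51.3) in spermatogonial inputs. The adult values sat higher and the groups still overlapped. With log2 values taken relative to a library's median of the 171 regions, the difference was 0.06 on the log2 scale (SE 0.0525, 95% interval -0.05 to 0.17, limma adjusted p = 0.738).

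Mir101c was the listed gene of 29 regions, 21 of them recurring, in the first assembled bases of chromosome 9 (2999972 to 3038327). Of these, 19 were called in all 16 inputs. The highest fold enrichment of the locus was 55.4 to 62.5 (median 58.7) in adult inputs and 56.9 to 64.3 (median 60.7) in spermatogonial inputs. Between 7536 and 9227 bp of it were called in each library, and the stages overlapped in both measures. The other 14 of the 16 listed satellite and ribosomal neighbours were named at no region, but only 2 of the 16 names are in the RefSeq table, so a name that the authors' annotation lacks could not have been found.

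Similar starts of chromosomes carried further groups. On chromosome 11, Sfi1 and the pseudogene Pisd-ps1 formed a nearly continuous block from 3125890 to 3200068, in which 70851 bp were called. It had 17 recurring regions, 16 of them called in every input, and alone made up 26.0% of the recurring length. The called length was 67221 to 68389 bp (median 67613.5) in adult inputs and 67102 to 68870 bp (median 68095.5) in spermatogonial inputs, at a highest fold enrichment of 29.4 to 39.4 and 28.2 to 35.6. Block length thus varied little and did not part the stages. A relative of Pisd-ps1, Pisd-ps2, lay at the start of chromosome 17 (5 regions, highest median 21.0), and 4 regions lay at Pisd itself on chromosome 5 (highest median 13.1). Pisd encodes the enzyme that makes phosphatidylethanolamine in mitochondria. The starts of chromosomes 10 (B020014A21Rik) and 18 (Vmn1r238) had 7 recurring regions each, and that of chromosome 4 (Vmn1r2) had 5.

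Gene clusters in the body of chromosomes made up the broad, low group. On chromosome 1, 24 recurring regions lay between C130026I21Rik and Sp110, and 13 more at Sp110 and Sp140, genes of the speckled-protein family of nuclear bodies. From 84 to 86 Mb of that chromosome, 166 regions were called in at least 1 input, 4.09% of all 4061. A further 22 recurring regions covered Mroh2a, Hjurp, Trpm8 and the Ugt1a genes. Hjurp is the chaperone that loads the centromeric histone, and the Ugt1a genes encode glucuronosyltransferases. Median fold enrichment of single regions was 5.51 to 10.6 at the first locus, 5.52 to 12.1 at Sp110 and 5.42 to 8.15 at Mroh2a.

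Called length separated the libraries more than height did in these clusters. At the Mroh2a locus it was 17835 to 22499 bp (median 19844.5) in adult inputs and 9990 to 25786 bp (median 17269) in spermatogonial inputs. The highest fold enrichment was 8.01 to 10.3 and 8.13 to 9.77. Both measures overlapped between stages. Gm13152, a zinc finger gene on chromosome 4, had 9 recurring regions with median fold enrichments of 5.52 to 7.57. Dux, the double homeobox gene of the early embryo, had 6, with medians of 8.15 to 14.1.

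Of the 16 autosomal multicopy genes listed, 9 were named at some region and 8 at a recurring one. Smo, which encodes the Hedgehog transducer Smoothened, had 1 in an intron (chromosome 6, 29747632 to 29748672), with fold enrichments of 24.0 to 28.1 (median 26.1) in adult inputs and 19.1 to 27.8 (median 24.2) in spermatogonial inputs. Speer4d and Cdk5rap2 each had 1 region called in 12 inputs, at medians of 6.99 and 7.80. These lay at the low end, beside the larger loci above.

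The sex chromosomes held few input regions, 15 on X (0.369% of all 4061) and 14 on Y (0.345%), but a larger share of the recurring ones (1.81% and 2.17%). Of 24 ampliconic genes of X and Y, families that are expressed in male germ cells, 0 were named at any input region, where 0.655% of all protein-coding genes of X and Y were. On X, the 5 recurring regions were an intron of 4930468A15Rik (median fold enrichment 31.98), an intron of Apool (24.4), and intergenic or upstream regions at Pak3 (32.8), Asmt (7.68) and G530011O06Rik (6.35). Pak3, a p21-activated kinase gene, gave 32.0 to 34.3 (median 32.8) in adult inputs and 30.4 to 33.6 (median 32.7) in spermatogonial inputs (chromosome X, 143482940 to 143483173). That was among the smallest spreads of the 171 regions. On Y, 4 of the 6 regions were listed under Zfy1, a zinc finger gene of the short arm, with medians from 8.90 to 22.9. The others were Gm20877 (9.33) and Erdr1 (13.7). Asmt, Erdr1 and G530011O06Rik lie in or next to the pseudoautosomal region, where X and Y pair in male meiosis. Of 8 such names, 4 of them in the RefSeq table, these 3 were found at any region. Asmt was listed at 9 regions, Erdr1 at 7 and G530011O06Rik at 1. The counts and shares of X and Y, here and below, include these regions and so are not limited to sex-specific sequence.

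Genes that define the germ cell stages were set beside all genes. Of the 21896 protein-coding genes of the RefSeq table, 9.14% were named at some input region and 0.521% at a recurring one, so few members of a short list would be named at such shares. Of 16 spermatocyte and spermatid genes, 0 were named at an input region. Of 12 spermatogonial genes, Gfra1 (1 region) and Thy1 (2 regions) were named, and of 13 somatic testis genes, Myh11 and Pecam1 (1 region each). Each of these regions was called in 1 input alone and none had the promoter class.

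Few regions recurred in one stage only. At least 4 adult inputs and 0 spermatogonial inputs called 29 regions (0.714% of 4061), and at least 4 spermatogonial and 0 adult inputs called 1 (0.0246%). Their selection rests on these calls, so the counts carry no test. The adult count depended on single libraries: it was 44 without c-Kit+ KO replicate 2, 16 without PS KO replicate 1, 19 without RS WT replicate 2 and 18 without RS KO replicate 2. It was 8 with a −log10 q of at least 5, and 3 when every library was held to its 359 strongest peaks. Without the 4 WT spermatogonial inputs, left out after their low peak numbers were seen, it was 39.

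The adult regions were low and mostly scattered, with some inside loci that recurred in both stages, as given below. Of the 29, 18 were called in 4 adult inputs, 10 in 5 and 1 in 6, and 28 were called in both PS and RS. Fold enrichment ran from 4.27 to 9.90 (median 5.52), near the lowest heights at which peaks were called. They lay on 14 chromosomes, with 0 on X or Y and 0 in the first 4 Mb. By class, 14 were intronic, 9 intergenic, 5 upstream and 1 exonic, with 0 at promoters. Just under the limit, 82 regions were called in 3 adult inputs and 0 spermatogonial inputs, against 6 in 3 spermatogonial and 0 adult inputs.

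Podxl, the gene for podocalyxin, a sialylated surface protein, stood nearest to the most recurrent adult region (chromosome 6, 31573149 to 31573996, upstream class). PS WT gave 6.52 and 5.52, RS WT 5.44 and 7.15, PS KO replicate 2 gave 5.34 and RS KO replicate 2 gave 4.86. It was called in all 4 adult WT inputs and in 2 of the 4 adult KO inputs. A peak of H3K27ac lay there in 4 of 12 libraries, up to a fold enrichment of 12.4.

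The 10 regions called in 5 adult inputs had Fgfr4, Pdk2, 2700054A10Rik, Ugt1a, Sv2b, Cntn4, Raver1, 4930453L07Rik, Mmab and Fam19a5 as listed genes. Upstream of Fgfr4, a fibroblast growth factor receptor (chromosome 13, 55147817 to 55148182), PS WT gave 9.24 and 4.97, RS WT replicate 1 gave 4.35, and PS KO gave 5.40 and 6.41. In an intron of Pdk2, a kinase that inhibits pyruvate dehydrogenase (chromosome 11, 95030604 to 95030923), values of 5.94 to 8.69 came from 3 WT and 2 KO inputs. None of these genes is in a list of stage genes used here. The Ugt1a region (chromosome 1, 88216610 to 88216912) lay inside the recurring Mroh2a locus (88211877 to 88304832). Likewise, an adult-only region at Sp110 (85596083 to 85596250), called in the PS inputs and in no RS input, lay inside the recurring Sp110 locus (85582815 to 85625635). The 2700054A10Rik region lay on chromosome 17, which also carries a recurring region of that name.

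The one spermatogonial region was intergenic, listed under C430002E04Rik (chromosome 3, 41402480 to 41402766). It was called in both Thy1+ KO inputs (5.96 and 4.34) and both c-Kit+ KO inputs (6.57 and 5.14). No WT spermatogonial and no adult input called it, and no H3K27ac library did. The count was 0 without any 1 of these 4 libraries, Thy1+ KO replicate 1, Thy1+ KO replicate 2, c-Kit+ KO replicate 1 or c-Kit+ KO replicate 2, and rose to 3 without PS WT replicate 1. It was 2 without c-Kit+ WT replicate 2, RS WT replicate 1, PS KO replicate 1, PS KO replicate 2 or RS KO replicate 2.

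Whether calls at single regions went with stage was tested over all regions called in 4 to 12 inputs. Of 568 such regions, 358 were called in more adult than spermatogonial inputs, 94 in fewer and 116 in equal numbers. By Fisher's exact test, 2-sided, 0 (0%) passed after Benjamini-Hochberg adjustment, the smallest adjusted p being 0.993. The smallest p that a single region could reach, 8 inputs of one stage and 0 of the other, was 0.000155, so over 568 regions 1 such region alone could not pass. At an unadjusted p under 0.05 there were 22 (3.87%), all with more adult inputs. Without the 4 WT spermatogonial inputs, a setting chosen after seeing the data, there were 2 at an unadjusted p under 0.05 and 0 after adjustment. Leaving out single libraries gave 23 to 45 at an unadjusted p under 0.05, against 0 adjusted. Adult inputs also held more peaks in all, as given below.

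At the 171 regions called in every input, height did not follow stage. With limma on log2 fold enrichment, genotype as a covariate and libraries centred, 0 of 171 regions (0%) passed an adjusted threshold of 0.05. Without adjustment 10 passed it, 9 lower and 1 higher in adult inputs. The smallest adjusted p was 0.400. Differences ran from -0.37 to 0.32 on the log2 scale, with a median SE of 0.0926. For 163 of the 171 regions the 95% interval lay within 0.5 log2 units of 0, so larger stage differences were outside the interval there. In all 171 regions the values of both stages overlapped. Leaving out the centring moved the median difference from -0.02 to 0.07, higher in adult inputs, with 0 regions past the threshold and 20 at an unadjusted p under 0.05.

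The pair of regions with the lowest adjusted p was singled out after the values were seen. An intergenic region by Csf2ra, a subunit gene of the GM-CSF receptor, near the end of chromosome 19 (61199631 to 61199881), gave 12.9 to 18.5 (median 14.8) in adult inputs and 15.2 to 19.3 (median 17.98) in spermatogonial inputs. Its difference was -0.27 (SE 0.0768, 95% interval -0.43 to -0.11, limma adjusted p = 0.400). For Gm14496, on chromosome 2 (182012823 to 182013099), it was -0.37 (SE 0.116, limma adjusted p = 0.400). Over the other settings and left-out libraries the differences stayed between -0.32 and -0.19 for Csf2ra and between -0.42 and -0.19 for Gm14496, and none passed the adjusted threshold.

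Genotype gave a similar picture. Over the same regions, 0 of 171 differed between KO and WT by limma (0%), with 15 at an unadjusted p under 0.05 and a smallest adjusted p of 0.470. The interaction of stage and genotype gave 0 (0%) by limma, with 10 at an unadjusted p under 0.05 and a smallest adjusted p of 0.778.

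**Figure D4:**
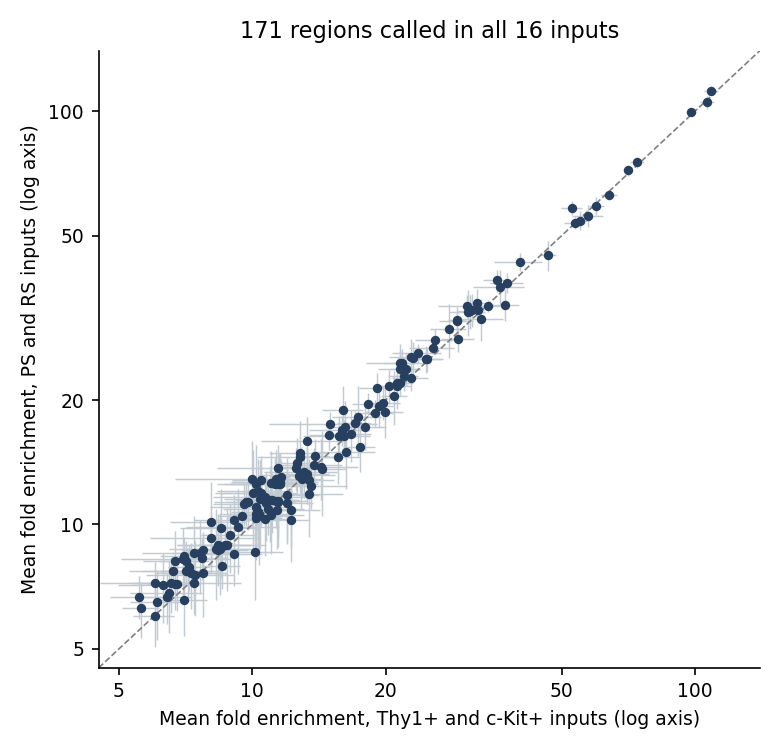
Mean fold enrichment in the 8 PS and RS inputs (y axis, log) against that in the 8 Thy1+ and c-Kit+ inputs (x axis, log) for the 171 regions called in all 16 inputs, with bars of 1 SD and a dashed line of equality. The points lie along the line, and 0 of 171 pass the limma threshold.

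None of 8 measures of whole libraries differed between the stages past the adjusted threshold. For peak number, adult inputs held 769 to 1175 peaks (median 973.5) and spermatogonial inputs 359 to 1192 (median 673.5). The adult range thus lay within the spermatogonial one. The mean log2 difference was 0.54, or 1.45 times (exact permutation test within genotype, 2-sided, p = 0.0159, smallest possible 0.000408; adjusted p over 8 measures 0.0533). It passed, at adjusted p-values of 0.0212, 0.0261 and 0.0196, without c-Kit+ KO replicate 2 (0.61), PS KO replicate 2 (0.56) or RS KO replicate 1 (0.59).

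The ranges of the stages parted in WT and overlapped in KO. In WT, adult inputs held 866 to 1171 peaks and spermatogonial inputs 359 to 612, 2.02 times as many without overlap (exact permutation p = 0.0286, the smallest 4 against 4 libraries can give; adjusted over 4 contrasts 0.0571). In KO the ranges were 769 to 1175 and 735 to 1192, a ratio of 1.05 (exact permutation p = 0.771). Between genotypes, KO spermatogonial inputs held 1.82 times as many as WT (exact permutation p = 0.0286, adjusted 0.0571), and KO adult inputs 0.948 times as many (exact permutation p = 0.6). The interaction was -0.94 on the log2 scale (exact permutation test within stage, 2-sided, p = 0.0159), and -0.31 with a −log10 q of at least 5 (exact permutation p = 0.111). Genotype was permuted within stage, so the null of this test was no genotype difference in either stage.

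The 4 WT spermatogonial inputs were low in peaks that other libraries did not share. Peaks called in that library alone numbered 8 to 69 in them, 102 to 288 in the KO spermatogonial inputs and 104 to 268 in the adult inputs. Of the 276 recurring regions they called 223 to 258, against 261 to 271 and 263 to 269. Peaks started at a height of 8 in Thy1+ WT replicate 1 and c-Kit+ WT replicate 1 and at 7 in every other input. The background height of the peak tables was 0.811 to 0.912 in WT spermatogonial inputs, 0.826 to 0.944 in KO spermatogonial inputs and 0.777 to 0.872 in adult inputs. The highest peaks, 196 to 215, were alike throughout. Read depth is unknown, and background height is only a relative indicator of it. The part of depth in the peak number was not tested.

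Shares of peaks by chromosome were set beside the numbers behind them. On X, adult inputs called 7 to 12 peaks and spermatogonial inputs 7 to 13. On Y they called 6 to 9 and 6 to 8. As shares of all peaks, X was 0.902% ± 0.138 (SD, n = 8) in adult and 1.31% ± 0.516 (SD, n = 8) in spermatogonial inputs, and Y was 0.751% ± 0.201 and 1.12% ± 0.446. The numbers of X and Y peaks overlapped almost fully, and each share has all peaks of the library as its denominator. The differences were -0.413 and -0.371 percentage points (exact permutation test, 2-sided, p = 0.0098 and 0.0408; adjusted 0.0533 and 0.0653). That of X passed without Thy1+ KO replicate 2 (-0.429), c-Kit+ KO replicate 2 (-0.403), PS KO replicate 2 (-0.401) or RS KO replicate 1 (-0.441). Without c-Kit+ WT replicate 1, whose X share of 2.51% was the highest, it shrank to -0.260 and did not pass. That of Y passed without c-Kit+ KO replicate 2 (-0.414) or RS KO replicate 1 (-0.429). In KO libraries alone they were -0.0334 and 0.0578.

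Other shares gave no difference past the adjusted threshold. The promoter share was 2.43% ± 0.421 (SD, n = 8) in adult inputs and 2.901% ± 0.547 (SD, n = 8) in spermatogonial inputs (exact permutation p = 0.0731, adjusted 0.0886). Peaks within 1 kb of a listed start made up 2.597% ± 0.448 and 3.16% ± 0.567 (exact permutation p = 0.0404, adjusted 0.0653). Without PS KO replicate 2 both passed, at -0.586 and -0.685 percentage points. The intergenic share was 42.6% ± 1.16 and 42.7% ± 1.61 (exact permutation p = 0.944). Called length was 1.27 times as large in adult inputs (exact permutation p = 0.02, adjusted 0.0533), and passed without c-Kit+ KO replicate 2 (0.40), PS KO replicate 2 (0.37) or RS KO replicate 1 (0.39 on the log2 scale).

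The recurring input regions also appeared among H3K27ac peaks. A peak of at least 1 H3K27ac library overlapped 267 of the 276 (96.7%), against 29.1% of all 4061 regions, and all 12 overlapped 127 (46.0%), against 3.47%. An overlap of 1 bp was enough, and recurring regions were longer than all regions (median 508 against 207 bp). The part of length in these shares was not tested. Both libraries of a group called 197 in Thy1+ WT (background over all regions 6.33%), 175 in c-Kit+ WT (5.59%), 164 in Thy1+ KO (5.1%), 199 in c-Kit+ KO (6.82%), 181 in PS KO (8.32%) and 200 in RS KO (10.5%). These counts were between 59.4% and 72.5% of the 276, and no difference between groups was tested. Among regions called in 1 input alone, 398 of 2299 (17.3%) met an H3K27ac peak. The 9 recurring regions without any had Tbc1d8, Tatdn3, Pced1b, Rrn3, Lrfn2, Gm17830, Myof, Gm13498 and Ntm as listed genes. Of the 29 adult-only regions, 6 (20.7%) had a peak in any H3K27ac library and 1 each in both PS KO and both RS KO libraries. Background height was constant within every H3K27ac library too, so neither set of tables carries a subtraction of input.

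At most shared regions the fold enrichment of H3K27ac libraries was no higher than that of the inputs. Over the 127 regions called in all 12 H3K27ac libraries, the median H3K27ac fold enrichment was below the median input value in 108. The ratio ran from 0.471 to 2.23 with a median of 0.770. Each fold has its own library's background height in the denominator. That height was 0.564 to 1.62 in H3K27ac libraries and 0.777 to 0.944 in inputs. The ratio therefore does not compare amounts of signal, and the part of background in it was not tested. By the highest value in a whole locus, B230118H07Rik had 103 to 117 in inputs and group means of 82.8 to 107 in H3K27ac. Sfi1 had 28.2 to 39.4 and 21.1 to 24.6 in the same order. The highest ratio was at Csf2ra, where inputs had a median of 16.1 and H3K27ac libraries gave 30.4 to 40.8.

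At 5 of the 17 loci with the most recurring regions an H3K27ac group mean lay above every input, in all groups at Mroh2a and in PS KO or RS KO at the others. These values are the highest in the whole span of a locus, and the H3K27ac peak need not overlap an input region. Recurring input regions covered 39344 of the 92956 bp of the Mroh2a locus and 6609 of the 100645 bp at Gm13152. At the Mroh2a locus the highest H3K27ac value was 48.1 ± 5.94 in PS KO, 46.2 ± 15.6 in Thy1+ KO, 35.6 ± 5.83 in c-Kit+ KO, 34.7 ± 4.64 in RS KO, 34.0 ± 4.55 in Thy1+ WT and 31.8 ± 10.7 in c-Kit+ WT (SD, n = 2 each), while the inputs reached 8.01 to 10.3. All 6 groups were above the inputs there. At Gm13152 it was 66.1 ± 15.8 in PS KO and 40.1 ± 3.01 in RS KO, against 9.78 ± 4.79 in Thy1+ KO (13.2 in replicate 1), 7.10 ± 0.678 in c-Kit+ KO, 6.46 ± 0.246 in Thy1+ WT and 6.52 ± 0.453 in c-Kit+ WT. The inputs of that locus gave 7.06 to 10.4 in both stages. At Vmn1r2 it was 31.2 ± 5.11 in RS KO and 12.9 ± 5.45 in PS KO, against 5.05 to 6.17 in the group means of spermatogonia, with inputs of 10.1 to 14.8. Olfr161 on chromosome 16 gave 20.3 ± 2.76 in RS KO and 8.39 ± 4.32 in PS KO, with inputs of 8.67 to 12.5. At Gm7120 on chromosome 13 it was 20.5 ± 8.695 in PS KO and 20.9 ± 1.99 in RS KO, against 10.7 to 11.1 in the group means of spermatogonia, with inputs of 12.4 to 19.5. These are descriptions of 2 libraries a group, without a test.

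**Figure D5:**
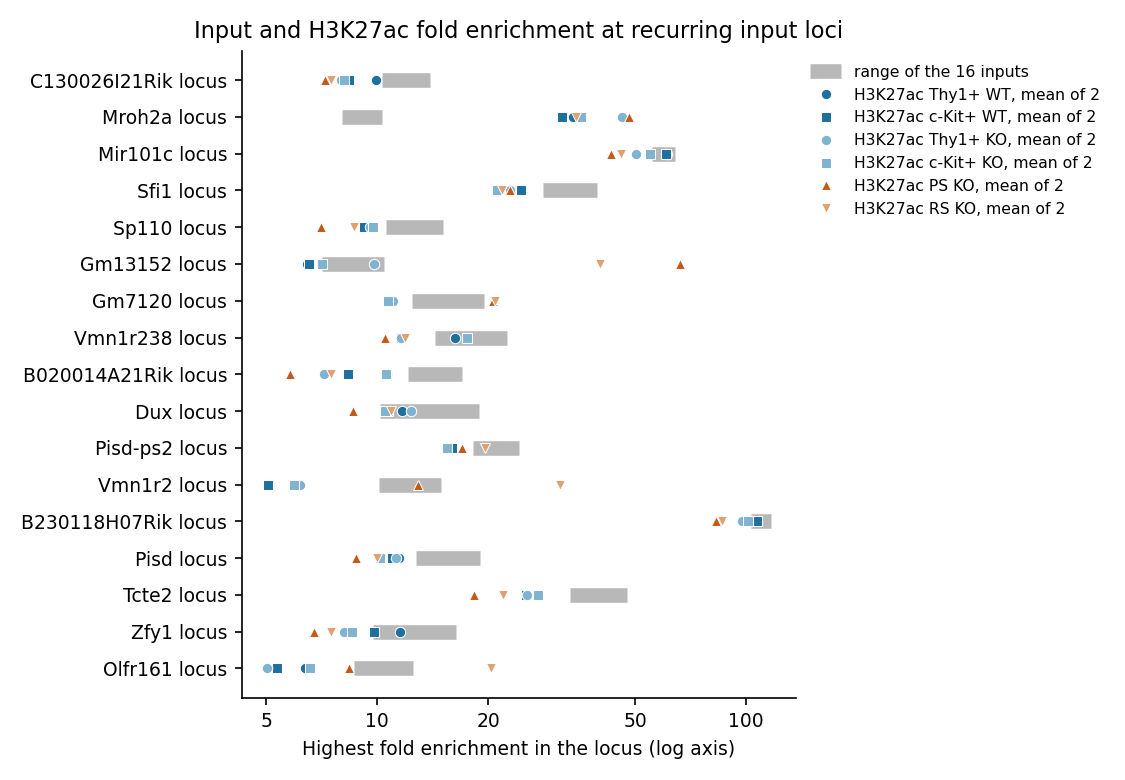
Highest fold enrichment (log axis) anywhere in the span of the 17 loci with the most recurring input regions. A grey bar gives the range of the 16 inputs, and marks give the mean of 2 H3K27ac libraries in each of 6 groups. An H3K27ac peak need not overlap an input region. Most marks lie within or left of the bar, while those of Mroh2a in all groups, Gm13152 and Gm7120 in PS KO and RS KO, and Vmn1r2 and Olfr161 in RS KO lie to its right.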

How the data were processed

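Each library had its own table of peaks. Per the submitters' processing notes, Bowtie and MACS2 were used with the mm10 build; versions and settings are not given in the sources used here. Per the file headers, the authors' tables give per summit a signal height, a −log10 p and a −log10 q, and a fold enrichment, together with the listed gene and a location class. The deposited fold equalled (height + 1) over (background + 1), with 1 background per library, so no input or local control entered it.

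Of several summits in 1 peak the highest was used. Mitochondrial peaks, 2 or 3 per input, were left out, and peaks sharing at least 1 bp were merged. A library's value in a region was its highest fold enrichment. Regions recurred in most inputs when called in at least 12 of 16, and in one stage when called in at least 4 of 8 and 0 of 8 of the other. Library measures were compared by exact permutation of stage within genotype, with Benjamini-Hochberg adjustment over 8 measures, fold enrichment by limma 3.58.1 in R 4.3.3, and calls by Fisher's exact test (scipy 1.17.1), with thresholds of 0.05. The scripts were tested on simulated data. Named regions were the 15 with the highest median fold enrichment, at most 2 per locus, the 10 of each stage called most often (ties by fold), and those of the gene lists. Members and lists were chosen with earlier results of these data known. Promoter and microRNA sequences are from RefSeq, GRCm38.p6, the same coordinates as mm10. Alternatives included stricter peaks, equal numbers of peaks, joined peaks, other normalizations and leaving out each library. A replicate number is shared between groups, but same-numbered libraries are not known to share a source. Read depth is unknown, which limits precision, and no interval based on counts is given.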

Additional observations from a re-analysis of the deposited data

Results flagged for a closer look

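In 16 sets of 8 libraries examined for a value far from the rest, chance alone would set apart about 1 in 20, and 2 had one. The X-linked share of peaks was 2.51% in c-Kit+ WT replicate 1, the library with the fewest peaks (359), and 0.935% to 1.56% in the other 7 spermatogonial inputs. The Y-linked share was 1.17% in RS KO replicate 1, the adult library with the fewest peaks (769), and 0.511% to 0.818% in the other 7 adult inputs. In peak number, the stage difference in these libraries was larger in WT than in KO. The KO minus WT value of the adult minus spermatogonial difference was -0.94 on the log2 scale (exact permutation of genotype within stage, 2-sided, p = 0.0159). The null of that test was no genotype difference in either stage. The mitochondrial chromosome, outside the comparisons above, carried peaks in all 16 inputs, with a median of 2 per library.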

How the results depend on the processing

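At single regions, limma and Fisher's test gave 0 under every setting run, including the replicate block, quantile normalization, no centring, stricter peaks and each left-out library. Peak number and called length passed the adjusted threshold with a fold enrichment of at least 5 (0.46 and 0.29), in WT libraries only (1.01 and 0.65; adjusted p = 0.0381 over the 8 measures, exact permutation, against 0.0571 for peak number over the 4 contrasts of the report) and with a height of at least 8, chosen after the data were seen (0.50 and 0.32), and peak number also with a −log10 q of at least 5 (0.26). The X-linked share passed under the same 4 settings (-0.451, -0.792, -0.409 and -0.527 percentage points) and the Y-linked share under 3 (-0.389 with the fold minimum, -0.800 in WT, -0.405 with stricter q). Promoter and start-site shares passed in WT only (-1.08 and -1.22) and reversed with equal numbers of strongest peaks (0.313 and 0.279) and in KO only (0.141 and 0.0975), where Y also reversed (0.0578). The intergenic difference reversed with the fold minimum (0.255), equal numbers (0.627), PS alone (0.358), WT only (0.600) and the height minimum (0.143). With stricter q the interaction in peak number no longer passed (-0.31). Leaving out each library gave 0.46 to 0.61 for peak number, 0.30 to 0.40 for length, -0.586 to -0.395 for promoters, -0.685 to -0.484 for start sites, -0.465 to 0.328 for intergenic peaks, -0.488 to -0.260 for X and -0.429 to -0.319 for Y, and 16 to 44 adult-only and 0 to 3 spermatogonia-only regions.

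Counts of recurring regions followed their limits: 171 with all 16 inputs required and 180 with peaks joined within 1000 bp, against 276. Adult-only regions numbered 1 when 6 of 8 inputs were required, 72 when 1 input of the other stage was allowed, 8 with stricter q and 3 with equal numbers, and spermatogonia-only regions 0, 6, 0 and 0. With either library of a group, adult-only regions with H3K27ac numbered 3 in RS KO and 1 in c-Kit+ KO. Blocked by replicate number (the replicate block), peak number gave an exact p of 0.0247 and the interaction 0.0216, and no call changed. Same-numbered libraries correlated from -0.221 to 0.173 over 28 pairs, with 6 over 0.1, so the numbers were not treated as pairs. The cause of these changes was not tested. Without read counts, depth limits the weakest calls, which start at a height of 7 or 8.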
